A study of Mus musculus with 8 samples.

Results

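The PGC-1, PPAR and ERR regulators of mitochondrial genes were followed through the open chromatin of mouse gastrocnemius, a calf muscle rich in fast fibres. They were taken as 10 genes, Ppargc1a, Ppargc1b, Ppara, Ppard, Esrra, Esrrb, Esrrg, Nrf1, Gabpa and Tfam, and their members were all regions that the deposited table annotates to one of these names. This gave 545 of 489637 regions (0.111%), with a median length of 108 bp, and the rule that chose them uses names alone. The assay was ATAC-seq, which marks open DNA by the adapters that a transposase can insert there. The series held 4 Vehicle and 4 iMSBmal1KO libraries, all from mice aged 6 months and all of the genotype written Cre+:iMSBmal1 fl/fl. The Vehicle group received vehicle and the iMSBmal1KO (knockout) group tamoxifen, so the drug and the loss of floxed Bmal1 (listed as Arntl), a transcription factor of the circadian clock, cannot be told apart. The labels name neither the promoter that drives Cre nor the time of day of collection, and nuclei came from a pair of whole muscles without a sort, so cells other than fibres are included. Since nothing states that each library came from a separate mouse, p-values measure only the spread between these libraries.

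PGC-1 alpha (Ppargc1a) and PGC-1 beta (Ppargc1b) are coactivators: they do not bind DNA themselves but dock on transcription factors and recruit the machinery that opens chromatin and starts transcription. Their partners include the PPAR receptors, which bind fatty acids and switch on fat oxidation, and the oestrogen-related receptors (ERR), orphan receptors that drive genes of respiration. Nuclear respiratory factor 1 (Nrf1) and the ETS factor Gabpa switch on nuclear genes for mitochondria, among them Tfam, which packages and transcribes mitochondrial DNA. In muscle these regulators set oxidative capacity, and Ppargc1a is known to be induced by exercise and cold.

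The DNA just before the start is shown for 6 starts, chosen for motif matches or for the promoter differences described below. Each line holds the 250 bases before a RefSeq start (build GRCm38.p6), 5′ to 3′ on the gene's strand. Capitals mark matches to 6 motifs searched on both strands: the E-box CACGTG bound by clock factors, the nuclear receptor half-site AGGTCA, the ERR element TCAAGGTCA (which contains the half-site), the NRF-1 core GCATGCG, the ETS core CCGGAA and the cyclic AMP element TGACGTCA.
Ppargc1a (chr5:51567726-51567975, - strand): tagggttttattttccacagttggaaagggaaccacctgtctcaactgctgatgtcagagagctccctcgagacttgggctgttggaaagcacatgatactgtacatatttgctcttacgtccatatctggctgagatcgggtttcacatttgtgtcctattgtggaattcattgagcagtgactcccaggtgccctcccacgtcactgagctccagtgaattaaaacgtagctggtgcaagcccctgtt
Esrra (chr19:6921809-6922058, - strand): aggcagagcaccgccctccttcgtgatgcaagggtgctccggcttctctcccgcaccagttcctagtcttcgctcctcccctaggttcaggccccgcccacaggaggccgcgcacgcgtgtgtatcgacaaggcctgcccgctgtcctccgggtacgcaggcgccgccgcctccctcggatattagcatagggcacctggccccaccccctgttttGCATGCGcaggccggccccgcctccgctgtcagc
Ppara (chr15:85735526-85735775, + strand): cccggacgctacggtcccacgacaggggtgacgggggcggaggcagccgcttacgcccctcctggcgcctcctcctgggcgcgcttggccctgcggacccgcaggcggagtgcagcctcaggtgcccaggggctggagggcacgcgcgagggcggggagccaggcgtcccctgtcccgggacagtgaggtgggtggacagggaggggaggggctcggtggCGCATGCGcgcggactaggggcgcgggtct
Gabpa (chr16:84834874-84835123, + strand): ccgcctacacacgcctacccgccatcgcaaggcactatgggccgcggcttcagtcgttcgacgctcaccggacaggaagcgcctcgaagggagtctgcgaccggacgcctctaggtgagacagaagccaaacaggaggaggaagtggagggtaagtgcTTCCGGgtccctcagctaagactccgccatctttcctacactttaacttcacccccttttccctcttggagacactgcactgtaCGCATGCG
Tfam (chr10:71238045-71238294, - strand): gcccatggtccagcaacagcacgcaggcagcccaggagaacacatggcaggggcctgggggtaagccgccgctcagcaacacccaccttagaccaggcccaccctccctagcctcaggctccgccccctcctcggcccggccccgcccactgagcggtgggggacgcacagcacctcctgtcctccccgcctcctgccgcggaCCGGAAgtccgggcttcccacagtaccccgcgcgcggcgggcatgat
Esrrb (chr12:86421394-86421643, + strand): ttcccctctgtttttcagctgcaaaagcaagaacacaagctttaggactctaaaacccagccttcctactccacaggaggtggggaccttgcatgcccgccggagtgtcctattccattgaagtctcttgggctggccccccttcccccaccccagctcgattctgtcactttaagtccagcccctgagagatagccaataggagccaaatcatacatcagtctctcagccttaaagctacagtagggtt
The RefSeq table held a sequence for 9 of the 10 genes, with 14 starts in all. The NRF-1 core lay in 4 of the 14 windows, those of Esrra, Ppara, Gabpa and 1 start of Esrrg, against 3.02% of 32851 windows of all genes. That Esrrg window is not printed, and no accessible region overlapped it. Gabpa and Tfam each held an ETS core, found in 12.0% of all windows. In Tfam it began at base 204 of 250, and in Esrra the NRF-1 core began at base 217. Gabpa carried both, with the NRF-1 core in its last bases before the start and the ETS core from base 159. No member window held the E-box (6.02% of all windows), the half-site (14.0%), the ERR element (0.387%) or the cyclic AMP element (1.55%), which says only that these letters were not in these windows. The Ppargc1a window had 5 CpG dinucleotides, against a median of 6 over all windows, 22 for Esrra and 27 for Ppara.

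The deposited signal is given throughout in the authors' scaled units, which behave as reads divided by a constant per library. Depth ran from 4.31 to 29.5 M read equivalents, and the median tested member region held 7 reads in the shallowest and 47.0 in the deepest library. Vehicle replicate 4 was the shallowest, with 16.5% of its reads on mitochondrial DNA and 24.9% of regions at 0. Its trimmed-mean scaling factor over the tested regions was 0.808, against 0.963 to 1.11 in the other libraries. Its deposited signal was thus low across tested regions, not only at the single genes named below. Arntl, the targeted gene, had a summed signal of 1942 to 2688 in the vehicle and 3023 to 3421 in the iMSBmal1KO libraries. Its log2 change was 0.46 (adjusted limma p of 0.374). Of its 37 tested regions 1 was called at an adjusted limma p under 0.05, against 0.0881% of all tested regions. Its accessibility does not by itself check the deletion. Fibre markers were open in every library (the summed signal of Ckm, Acta1, Mylpf, Tnnt3, Des and Myot ran from 9846 to 16520 in vehicle and from 12774 to 15374 in iMSBmal1KO). Of the macrophage markers 3 of 4 had regions (Adgre1, Csf1r and Ptprc), summing to 108 to 172 and 123 to 151, and of the adipocyte markers 3 of 4 (Adipoq, Plin1 and Cidec), summing to 83.2 to 103 and 91.6 to 98.9. Endothelial markers summed to 1370 to 1844 and 1452 to 1755, fibro-adipogenic markers to 622 to 926 and 650 to 968, and satellite cell markers to 562 to 657 and 626 to 778. The vehicle and iMSBmal1KO ranges overlapped for every one of these marker lists. In whole muscle, a change in the share of nuclei of a type and a change in accessibility per nucleus cannot be told apart, and the part of cell makeup in the results below was not tested.

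None of the 10 regulators differed between iMSBmal1KO and Vehicle in summed accessibility at an adjusted p under 0.05 (limma-trend on log2(signal + 1), Benjamini-Hochberg over 22224 genes, of which 0.13% were called). Adjusted p-values ran from 0.563 to 0.986, and in each of the 10 genes the values of the groups overlapped under the deposited scaling. The members' median log2 change was 0.09, beside 0.11 for all tested genes. At an unadjusted p under 0.05 there was again none of the 10, against 7.61% of all genes higher and 1.86% lower. Exact two-sided permutation p-values for the 10 sums (n = 4 per group) ran from 0.0857 to 1, where 4 against 4 libraries allow 0.0286 at the least. With the deposited scaling and all libraries, the separate 95% intervals of the fold for the 10 genes reached no lower than 0.705 and no higher than 1.60. They are not joint intervals, and they do not cover the choice of processing. Over the other settings tried, the log2 change went as low as -0.30 for Ppargc1a and as high as 0.39 for Nrf1. Under the deposited scaling 7 genes had a log2 change above 0 and 3 below it (Ppargc1a, Ppard and Esrra), whereas with trimmed-mean factors Ppargc1b (-0.06), Ppara (-0.03), Esrrg (-0.05) and Tfam (-0.02) also lay below 0. Those factors moved the median of all genes from 0.11 to -0.01, so changes relative to that median are given where they matter. Leaving out vehicle replicate 4 moved the same median from 0.11 to 0.05.

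**Figure D1:**
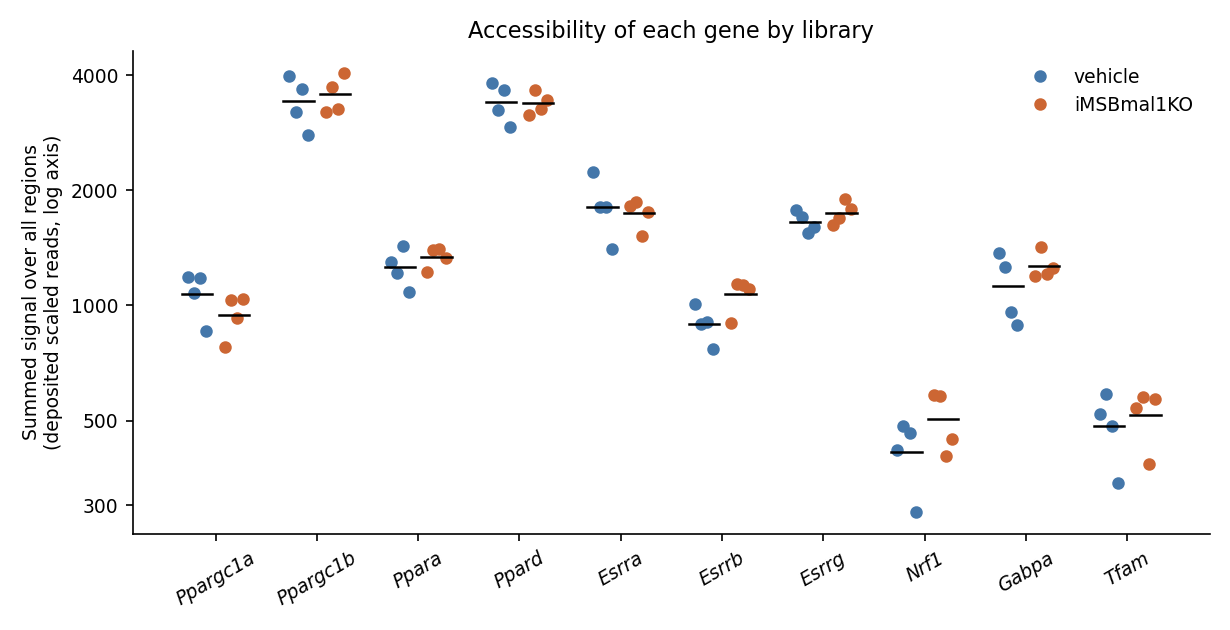
Summed signal of each regulator in each of the 8 libraries (log axis, deposited scaled reads); points are libraries, black lines group means, blue Vehicle and orange iMSBmal1KO. In each gene the points of the groups overlap, with Ppargc1a the gene whose mean lay lower in iMSBmal1KO (946 against 1074) by the largest share. Heights of different genes are not comparable, since the sums cover different lengths.

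Of the 545 member regions, 170 passed the filter on low signal and 375 did not. None of the 170 passed the adjusted threshold, as did 0.0881% of all 124901 tested regions, and the smallest adjusted p was 0.472. With limma-voom on read equivalents 0 member regions were called as well, against 0.274% of all. At an unadjusted p under 0.05 it gave 7 higher and 13 lower (4.12% and 7.65%), beside 7.27% and 4.13% of all regions. At an unadjusted p under 0.05, 5 member regions were higher and 5 lower (2.94% each), against 6.59% and 2.63% of all tested regions. Groups did not overlap in 5 regions that were higher (2.94%) and 3 that were lower (1.76%), beside 3.62% and 1.87% of all regions. With limma-trend these shares lay below the background in the higher direction and near it in the lower, whereas the limma-voom share of lower regions lay above its background. The median log2 change of the member regions was 0.06, beside 0.12 for all. Of the member regions, 44.8% abutted another, so neighbours are not independent.

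Ppargc1a, the inducible coactivator, showed the lowest estimate of the 10. Its 71 regions cover 10513 bp on chromosome 5, within the transcripts listed from 51454250 to 51567727 on the minus strand. Their summed signal, by replicate from 1 to 4, was 1184, 1078, 1179 and 857 in Vehicle and 779, 1036, 927 and 1041 in iMSBmal1KO, and values of other members are given in the same order. Only iMSBmal1KO replicate 1 lay below every vehicle library, and vehicle replicate 4 lay below 3 of the 4 iMSBmal1KO libraries. This overlap depends on the scaling: divided by the trimmed-mean factors, every iMSBmal1KO sum lay below every vehicle sum. The log2 change was -0.18 ± 0.15 (SE), with a 95% fold interval of 0.705 to 1.10 and a adjusted limma p of 0.667. Relative to the median of all genes it was -0.29, at percentile 15.4. With trimmed-mean factors the estimate was -0.30 and with loess -0.29 (unadjusted p of 0.0150 and 0.0123, adjusted limma p of 0.390 and 0.339), and without iMSBmal1KO replicate 1 it was -0.09 and without vehicle replicate 4 -0.29 (adjusted limma p of 0.918 and 0.734). Of its 20 tested regions 15 had a log2 change below 0, with a median of -0.32, against 38% of all tested regions below 0, but neighbours are not independent and the count has no test.

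The gene has an upstream start at 51567727 (transcript Ppargc1a-202), shown above, and a second one 13.9 kb further in, at 51553872 (Ppargc1a-201). Its other listed transcripts start close to either of these. Signal within 1000 bp of the upstream start was 111, 121, 113 and 90.7 in vehicle and 85.2, 125, 70.4 and 67.7 in iMSBmal1KO. In 3 of 4 iMSBmal1KO libraries it lay below every vehicle library, while replicate 2 lay above all of them. The log2 change was -0.36 ± 0.22 (SE, 95% fold interval 0.570 to 1.07, adjusted limma p of 0.559), and -0.54 when iMSBmal1KO replicate 2 was left out (adjusted limma p of 0.904). At the second start the values were 161, 157, 154 and 128 in vehicle and 115, 151, 147 and 164 in iMSBmal1KO, which overlapped, with a log2 change of -0.06 ± 0.20 (SE, 95% fold interval 0.723 to 1.27, adjusted limma p of 0.917). A test of the difference between these starts was not run. The region at 51553744 to 51553829, 42 bp past the second start, had 38.4, 33.9, 36.2 and 50.0 in vehicle and 19.3, 20.9, 25.0 and 27.6 in iMSBmal1KO. All 4 iMSBmal1KO libraries lay below all 4 vehicle libraries there, with a log2 change of -0.75 ± 0.28 (SE, unadjusted p of 0.0135, adjusted limma p of 0.475) on 16 to 57 reads per library. The larger region over the start itself, 51553840 to 51554097, had 110 ± 21.3 in vehicle and 120 ± 18.6 in the knockout group (SD, n = 4 each), a log2 change of 0.13 (adjusted limma p of 0.861). Their 95% intervals overlapped (-1.32 to -0.17 and -0.34 to 0.61), and the difference between the regions was not tested.

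The most open part of Ppargc1a lay in neither promoter. A cluster of 10 regions in intron 2, at 51531381 to 51537292 and 30.4 to 36.3 kb from the upstream start, held 42.7% of the gene's signal in vehicle. Its bounds were set after its values were seen, so it is described without a test. The cluster summed to 556, 440, 581 and 288 in vehicle and to 312, 438, 377 and 404 in iMSBmal1KO. Vehicle replicate 4 was the lowest of all 8 libraries and the other 3 vehicle libraries lay above every iMSBmal1KO library. The strongest single region of the gene stood in this cluster, at 51534585 to 51534812, with 165 ± 50.5 in vehicle and 148 ± 18.2 in the knockout group (SD, n = 4 each) and a log2 change of -0.10 (adjusted limma p of 0.902). Of the other regions named by the fixed rule, 51546699 to 51546830 in intron 2 had 11.3 to 13.9 in vehicle and 3.42 to 13.8 in iMSBmal1KO, on as few as 4 reads (log2 change -0.82, adjusted limma p of 0.588).

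**Figure D2:**
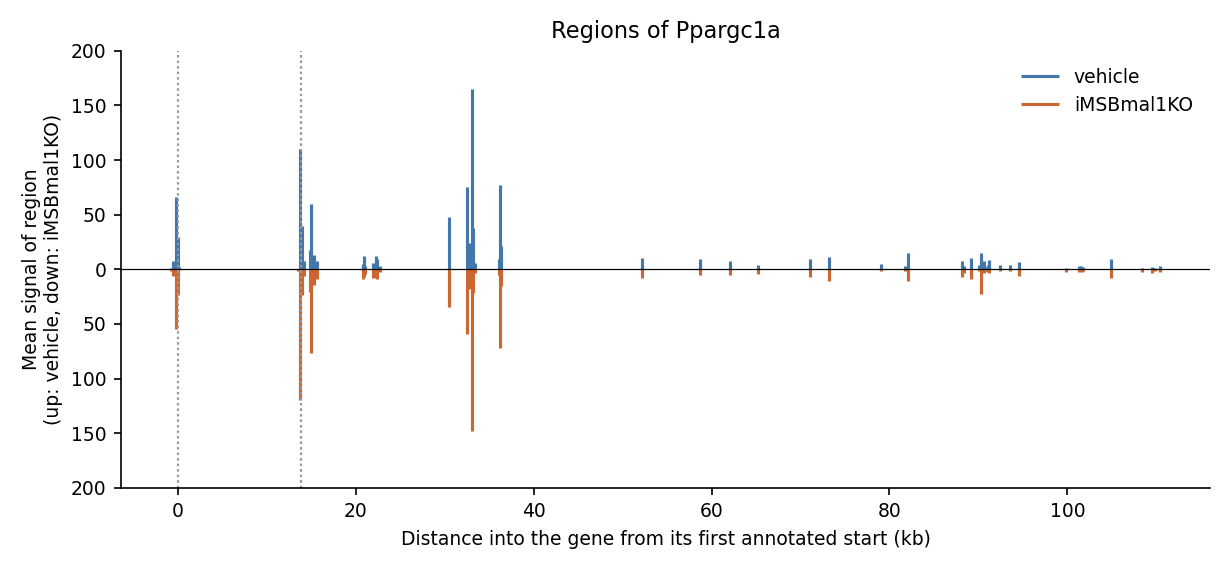
Mean signal of each region of Ppargc1a (deposited scaled reads; vehicle drawn upward, iMSBmal1KO downward) against distance into the gene from its upstream start in kb. Dotted lines mark the annotated starts, which lie in groups at 0 to 0.022 kb and at 13.804 to 13.855 kb. The tallest line of both groups stands in the intron 2 cluster 30.4 to 36.3 kb in, and the next tallest is the region over the second start 13.9 kb in (110 in vehicle, 120 in iMSBmal1KO).

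Ppargc1b, the second coactivator, had 99 regions on chromosome 18, more than 98.7% of all genes in the table. Its sum was 3997, 3214, 3684 and 2792 in vehicle and 3201, 3739, 3274 and 4067 in iMSBmal1KO, which interleaved. The log2 change was 0.07 ± 0.14 (SE, 95% fold interval 0.854 to 1.29, adjusted limma p of 0.875). Its highest region, in intron 2 at 61380254 to 61380642, had 534 ± 103 and 556 ± 98.7 (SD, n = 4 each) in the same order. At an unadjusted p under 0.05, 6.59% of all tested regions were higher and 2.63% lower. Of the 47 tested regions of Ppargc1b, more than in any other member, 1 was higher and 4 lower. The higher one, in intron 4 at 61314082 to 61314176, had 25.0 to 50.2 in vehicle and 59.6 to 66.1 in iMSBmal1KO, without overlap (log2 change 0.67, adjusted limma p of 0.496). An abutting pair in intron 2, from 61342500 to 61342597 and from 61342598 to 61342688, went the other way with log2 changes of -0.94 and -1.05 (adjusted limma p of 0.478 and 0.535), the second -0.67 with iMSBmal1KO replicate 4 left out. In the first of the pair the groups did not overlap, at 15.6 to 42.6 and 10.0 to 15.5, and the pair held as few as 5 and 2 reads in a library. RefSeq places the microRNA gene Mir378a inside Ppargc1b, and its reads were counted under whichever gene the table assigned.

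Among the receptors, Ppara, the fatty acid receptor of fat oxidation, kept its sum within the spread. The 31 regions on chromosome 15 summed to 1296, 1220, 1432 and 1085 in vehicle and to 1222, 1400, 1409 and 1332 in iMSBmal1KO (log2 change 0.10 ± 0.14 SE, 95% fold interval 0.874 to 1.31, adjusted limma p of 0.810). The CpG-rich window printed above precedes a RefSeq start that lies further in than the main start, Ppara-203 at 85735564. It spans the main start and lies mostly inside that transcript. At the main start signal was 786, 700, 807 and 666 in vehicle and 694, 803, 674 and 730 in iMSBmal1KO. That is a log2 change of -0.03 ± 0.17 (SE, adjusted limma p of 0.963), with overlapping groups. Its 7 intronic regions summed to 172, 132, 128 and 100 in vehicle and to 177, 189, 206 and 172 in iMSBmal1KO. There every iMSBmal1KO library lay above every vehicle library, narrowly so for replicate 4 (171.9 against 171.6), with a log2 change of 0.51 ± 0.19 (SE, unadjusted p of 0.0137, adjusted limma p of 0.474). One region of intron 7, at 85798760 to 85798956, carried most of this signal. It had 141, 104, 98.5 and 81.3 in vehicle and 155, 160, 162 and 153 in iMSBmal1KO, again without overlap (log2 change 0.59 ± 0.22 SE, adjusted limma p of 0.472). Tested directly, the log2 ratio of promoter to all other signal of Ppara changed by -0.28 ± 0.18 (SE, adjusted limma p of 0.626), so promoter and body could not be shown to differ.

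Ppard, the receptor that is the more abundant of the PPARs in muscle fibres, was flat. Its 68 regions on chromosome 17 summed to 3821, 3258, 3661 and 2930 in vehicle and to 3153, 3671, 3272 and 3447 in iMSBmal1KO, a log2 change of -0.01 ± 0.13 (SE, 95% fold interval 0.823 to 1.20, adjusted limma p of 0.986). Its strongest region was 3337 bp inside the gene, at 28236119 to 28236798, with 788 ± 95.5 and 766 ± 84.7 (SD, n = 4 each), while the region at the first start had 586 ± 117 and 613 ± 89.2. Per kb in vehicle the order turned, with 1159 for the former and 1441 for the start. The fixed rule also named 28287570 to 28287784, with 9.38 to 24.1 in vehicle and 6.27 to 10.3 in iMSBmal1KO, on as few as 3 reads (log2 change -0.78, adjusted limma p of 0.549).

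The ERR genes differed from one another in where they were open rather than in any called change. Esrra (ERR alpha, a partner and a target of PGC-1 alpha) is compact, with 3 regions on chromosome 19, all at its starts. Its sum was 2234, 1809, 1815 and 1404 in vehicle and 1826, 1869, 1522 and 1756 in iMSBmal1KO, with vehicle replicates 1 and 4 at the extremes. The log2 change was -0.04 ± 0.15 (SE, 95% fold interval 0.779 to 1.21, adjusted limma p of 0.933). A single region, 6921757 to 6922441, held nearly all of it, at 1775 ± 326 and 1696 ± 139 (SD, n = 4 each), and spans the printed window. RefSeq places Trmt112 over part of Esrra, and Prdx5 and Catsperz within 1000 bp of the gene. Which end of Esrra each adjoins was not checked, so whether any of them shares the signal at its start is not known.

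Esrrb (ERR beta, best known from embryonic stem cells and the placenta) had the only member promoter with an unadjusted p under 0.05. Its 46 regions on chromosome 12 summed to 1008, 896, 907 and 769 in vehicle and to 899, 1136, 1133 and 1108 in iMSBmal1KO. Of the iMSBmal1KO libraries 3 of 4 lay above every vehicle library, and the log2 change was 0.26 ± 0.15 (SE, 95% fold interval 0.966 to 1.48, exact permutation p of 0.0857, adjusted limma p of 0.563). The promoter was that of Esrrb-202, whose start at 86421644 lies 60.5 kb inside the gene and whose window is printed last above. Its signal was 66.1, 64.7, 52.7 and 56.3 in vehicle and 77.5, 85.3, 76.3 and 114 in iMSBmal1KO. All iMSBmal1KO libraries lay above all vehicle libraries, with a log2 change of 0.54 ± 0.22 (SE, 95% fold interval 1.07 to 1.97, unadjusted p of 0.0193, adjusted limma p of 0.493). Over the other settings tried its adjusted p ran from 0.198 to 0.904, so it was called in none. That is 1 of 20 tested member promoters, against 7.63% of all 25081 promoters higher and 2.1% lower at an unadjusted p under 0.05, and 0.132% called after adjustment. At the upstream start, Esrrb-204, the values were 133 to 180 and 137 to 227, a log2 change of 0.27 ± 0.21 (SE, adjusted limma p of 0.625), which ran from 0.16 without iMSBmal1KO replicate 4 to 0.40 without replicate 1. The gene's highest region, in intron 2 at 86483385 to 86483871, had 231 ± 56.5 in vehicle and 272 ± 66.2 in the knockout group (SD, n = 4 each, log2 change 0.23, adjusted limma p of 0.747), and leaving out vehicle replicate 2 gave 0.06, iMSBmal1KO replicate 2 gave 0.11 and iMSBmal1KO replicate 1 gave 0.40.

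Esrrg (ERR gamma, linked to oxidative fibres) had the most regions of the members, 201, scattered over chromosome 1 from 187608791 to 188214886, and only 35 were strong enough to test. Its sum was 1779, 1709, 1544 and 1601 in vehicle and 1622, 1691, 1895 and 1784 in iMSBmal1KO (log2 change 0.08 ± 0.13 SE, 95% fold interval 0.872 to 1.27, adjusted limma p of 0.845). Its highest region, 310253 bp from its listed start at 187919044 to 187919436, had 154 ± 19.2 and 157 ± 20.3 (SD, n = 4 each). An intron 3 region at 188105657 to 188105846 had 9.38 to 28.8 in vehicle and 26.8 to 35.1 in iMSBmal1KO, with an overlap of a single vehicle library (log2 change 0.95 ± 0.35 SE, unadjusted p of 0.0135, adjusted limma p of 0.475) on as few as 3 reads.

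Nrf1 was not called, and its estimate was lower when 1 library was left out. Its 15 regions on chromosome 6 summed to 419, 484, 463 and 288 in vehicle and to 582, 579, 403 and 448 in iMSBmal1KO. Replicates 1 and 2 of iMSBmal1KO lay above every vehicle library and replicate 3 below 3 of them, and vehicle replicate 4 was the lowest of all. The log2 change was 0.29 ± 0.18 (SE, 95% fold interval 0.938 to 1.60, adjusted limma p of 0.594), the highest of the 10, but 0.13 without vehicle replicate 4, when Esrrb stood higher at 0.19. The median of all genes fell from 0.11 to 0.05 in the same refit, so the fall was not all particular to Nrf1. The region over its start, 30047883 to 30048200, had 282 ± 90.7 and 346 ± 78.7 (SD, n = 4 each), with a log2 change of 0.34 (adjusted limma p of 0.664) that was 0.06 without vehicle replicate 4. In the weaker strip that abuts it upstream, 30047735 to 30047882, values were 19.5 to 27.7 in vehicle and 32.5 to 40.1 in iMSBmal1KO, without overlap (log2 change 0.67 ± 0.27 SE, adjusted limma p of 0.504).

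Gabpa summed to 1373, 1264, 962 and 888 in vehicle and to 1193, 1422, 1212 and 1256 in iMSBmal1KO (log2 change 0.20 ± 0.16 SE, 95% fold interval 0.914 to 1.44, adjusted limma p of 0.650). The lower mean in vehicle came with replicates 3 and 4, while replicates 1 and 2 lay among the iMSBmal1KO values. Without vehicle replicate 4 the log2 change was 0.10, and without vehicle replicate 1 it was 0.31. One region on chromosome 16, 84834636 to 84835572, carried nearly all of it, at 1102 ± 234 and 1251 ± 108 (SD, n = 4 each). RefSeq places Atp5j, which encodes a subunit of ATP synthase, over the same stretch, so the region cannot be assigned to either gene by these data. Tfam summed to 519, 587, 484 and 344 in vehicle and to 540, 575, 385 and 568 in iMSBmal1KO, a log2 change of 0.11 ± 0.18 (SE, 95% fold interval 0.825 to 1.40, adjusted limma p of 0.846). Its main region, on chromosome 10 at 71237864 to 71238437, covers the window with the ETS core and had 435 ± 96.1 and 467 ± 79.3 (SD, n = 4 each).

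**Figure D3:**
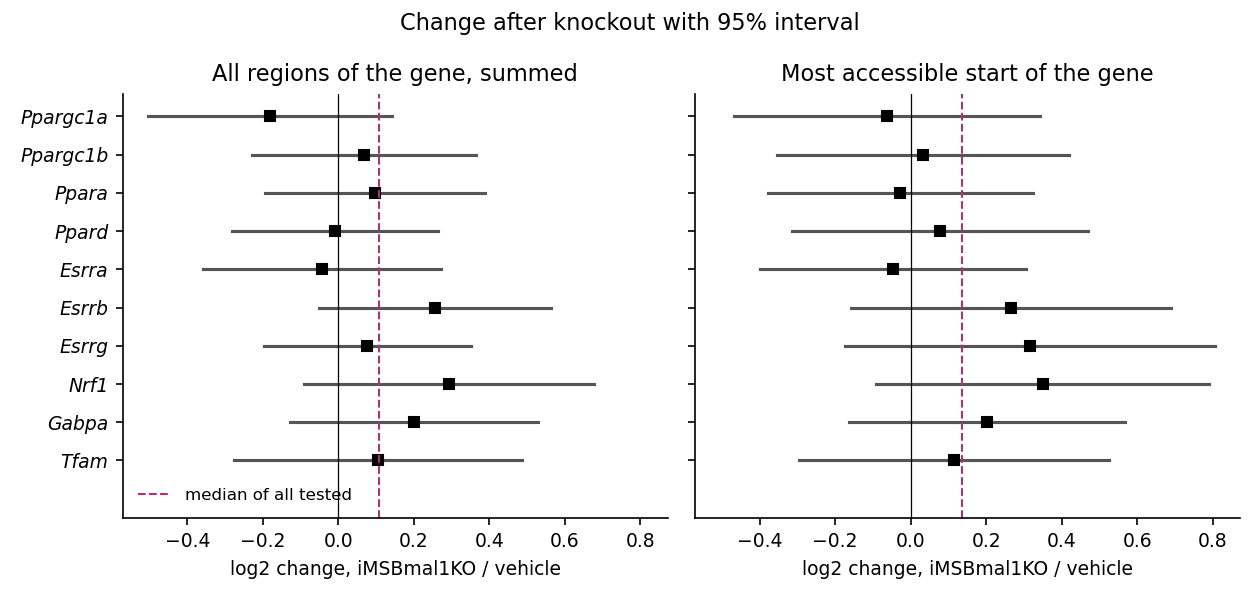
Log2 change (iMSBmal1KO over Vehicle, squares) with its 95% interval (lines) for the summed signal of each gene, left, and for its most accessible start, right; the dashed line is the median of all tested genes or promoters. Every interval includes 0, and the summed estimates run from -0.18 for Ppargc1a to 0.29 for Nrf1, the latter 0.13 without vehicle replicate 4. At the starts, the estimates of Esrrg (0.32) and Nrf1 (0.35) were 0.10 and 0.12 without that library. The median of all tested promoters fell from 0.14 to 0.06 in the same refit.

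The regulators fell into those that were open at their starts and those that were open along the gene. In vehicle, signal within 1000 bp of a start made up 100% of the total for Esrra, 99.4% for Gabpa, 93.9% for Nrf1 and 92.8% for Tfam. It was 64.6% for Ppara, 27.7% for Ppard, 24.9% for Esrrb, 24.2% for Ppargc1a, 14.4% for Ppargc1b and 5.66% for Esrrg. Between the groups of high and low shares stood Ppara, and the libraries of Ppard, Esrrb and Ppargc1a overlapped. SDs over the 4 vehicle libraries were at most 2.84 percentage points, that of Ppara. The share for Ppara was 64.6% ± 2.84 in vehicle and 60.0% ± 3.97 in the knockout group (SD, n = 4 each), the largest shift in percentage points, and the ranges overlapped (61.7% to 68.3% and 54.2% to 62.6%). Of the 8 genes with both parts measurable, none passed the test of promoter against the rest of the gene, for which 0% of 9526 genes were called, and none had an unadjusted p under 0.05 (6.66% of all genes higher, 2.68% lower).

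**Figure D4:**
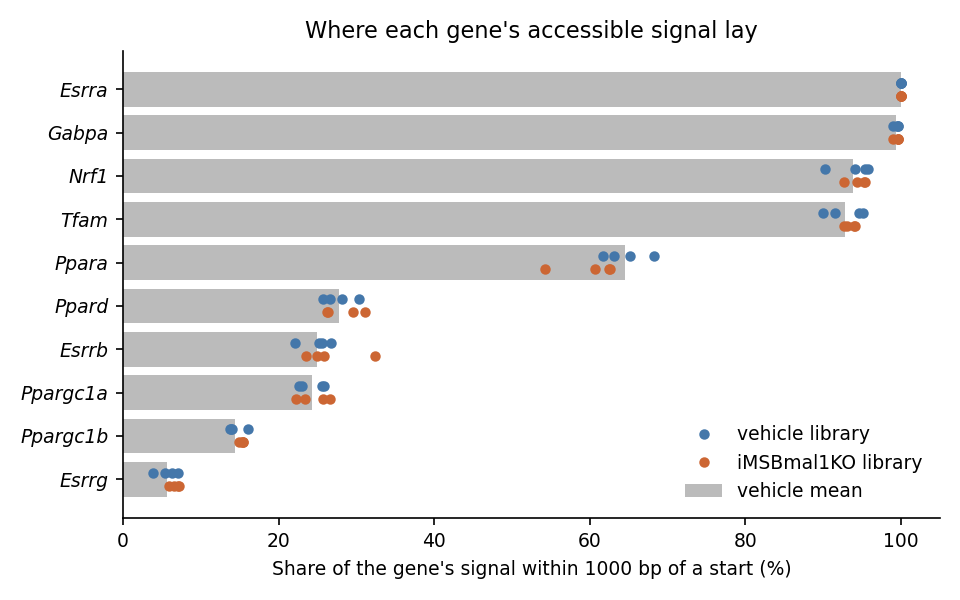
Share of each gene's signal that lay within 1000 bp of an annotated start (percent); bars are vehicle means, points single libraries of either group. Esrra, Gabpa, Nrf1 and Tfam stand at or above 90% in every library, and Esrrg reaches at most 7.22%.

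Per length, the promoters spanned a wide range. Promoter signal per kb of promoter region in vehicle was 2180 ± 407 for Esrra (SD, n = 4), above 99.7% of 22214 genes with such a region, and 1055 ± 221 for Gabpa. Then followed Tfam at 604 ± 132, Ppard at 572 ± 79.0, Ppargc1b at 408 ± 41.2, Ppara at 391 ± 31.7 and Nrf1 at 329 ± 75.9. Ppargc1a had 248 ± 26.1, Esrrb 163 ± 20.9 and Esrrg 78.0 ± 22.2, the last above 38.8% of genes. From Tfam down to Ppargc1a, the vehicle ranges of neighbours in this order overlapped. Within each vehicle library, however, Ppard lay above Ppargc1b and Nrf1 above Ppargc1a. The other neighbours in this stretch changed order between vehicle libraries, so their order is not resolved. The vehicle ranges of Esrra, Gabpa, Ppargc1a and Esrrb each lay wholly above that of the next gene. The order of the group means in iMSBmal1KO began in the same way, with Esrra at 2093 ± 186 and Gabpa at 1196 ± 99.9, and ended with Esrrb at 209 ± 41.0 and Esrrg at 96.2 ± 7.34.

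By gene section, 32 of 36 combinations of member and section could be tested. None was called, against 0.108% of 41562 combinations over all genes, and 1 had an unadjusted p under 0.05, the Ppara introns described above (7.01% of all higher, 2.69% lower). Regions at starts were 9.17% of the members' regions but held 37.6% of their vehicle signal, and introns were 40.0% of regions with 31.4% of the signal. The section named 5' UTR exon took 38.2% of member regions, against 13.6% of the regions of all genes. That label covers more than exons: in Esrrg it was given to 129 regions that stretch over 381 kb and in Ppard to 47 regions over 55.3 kb, so these counts describe the annotation.

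Pathway genes were read from fixed lists, chosen with earlier results of these data known. No gene of any list was called at the gene level, and no region or promoter of theirs passed the adjusted threshold. The counts below stand beside 33.4% of all 22224 tested genes with a log2 change below 0, so most genes lay above it. At an unadjusted p under 0.05 (limma), 7.61% of all genes were higher and 1.86% lower. A list of 14 partners and modulators of the regulators included retinoid X receptors, corepressors and a deacetylase. Of these 14 genes, 12 had a log2 change above 0, with a median of 0.21, and 1 had an unadjusted p under 0.05. That gene, Gabpb2, which encodes a partner subunit of Gabpa, had 485 ± 74.2 in vehicle and 603 ± 31.9 in the knockout group (SD, n = 4 each), without overlap, and a log2 change of 0.33 (adjusted limma p of 0.524). The deacetylase Sirt1 had a log2 change of 0.34, Rxra -0.07 and the corepressor Nrip1 -0.06 (adjusted limma p of 0.538, 0.864 and 0.892).

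Of 12 genes that copy or express mitochondrial DNA, 11 were tested, with a median log2 change of 0.30. An unadjusted p under 0.05 was reached by 2, each higher, beside 7.61% of all genes. The nuclease Mgme1 had 480 ± 145 in vehicle and 647 ± 93.5 in iMSBmal1KO, and the single-strand binding protein Ssbp1 116 ± 22.9 and 163 ± 45.1 (SD, n = 4 each), both with overlapping groups and adjusted limma p of 0.511 and 0.524. Twnk, the helicase, had the lowest estimate, a log2 change of -0.48 (adjusted limma p of 0.554), and the protease Lonp1 had -0.08 (adjusted limma p of 0.860).

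Of the 18 targets in fat oxidation, all were tested, 14 lay above 0 and the median was 0.20. An unadjusted p under 0.05 was reached by 4, all higher, beside the 7.61% of all genes. Hadhb, the beta subunit of the mitochondrial trifunctional protein, had 837, 862, 598 and 632 in vehicle and 994, 1187, 958 and 1083 in iMSBmal1KO. Its groups did not overlap, with a log2 change of 0.54 ± 0.16 (SE, 95% fold interval 1.16 to 1.83, unadjusted p of 0.00271, adjusted limma p of 0.362). Plin5, a coat protein of lipid droplets, had 116 ± 22.9 and 171 ± 38.8 (SD, n = 4 each) with overlap (log2 change 0.54, adjusted limma p of 0.501). Hadha, the alpha subunit of the same protein as Hadhb, had a log2 change of 0.44 and was named after its values were seen. Lowest in this list were the uncoupling protein Ucp3, with a log2 change of -0.17, and Acadl with -0.05 (adjusted limma p of 0.726 and 0.930).

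Of 14 respiration targets 12 were tested, 11 of them above 0, with a median of 0.14 and none at an unadjusted p under 0.05. The complex II subunit Sdha had a log2 change of 0.43, the angiogenic factor Vegfa 0.29 and Sdhb -0.04 (adjusted limma p of 0.542, 0.542 and 0.944). The medians of the 4 lists and of the regulators stand beside 0.11 for all genes, and nothing particular to a list is read from them.

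**Figure D5:**
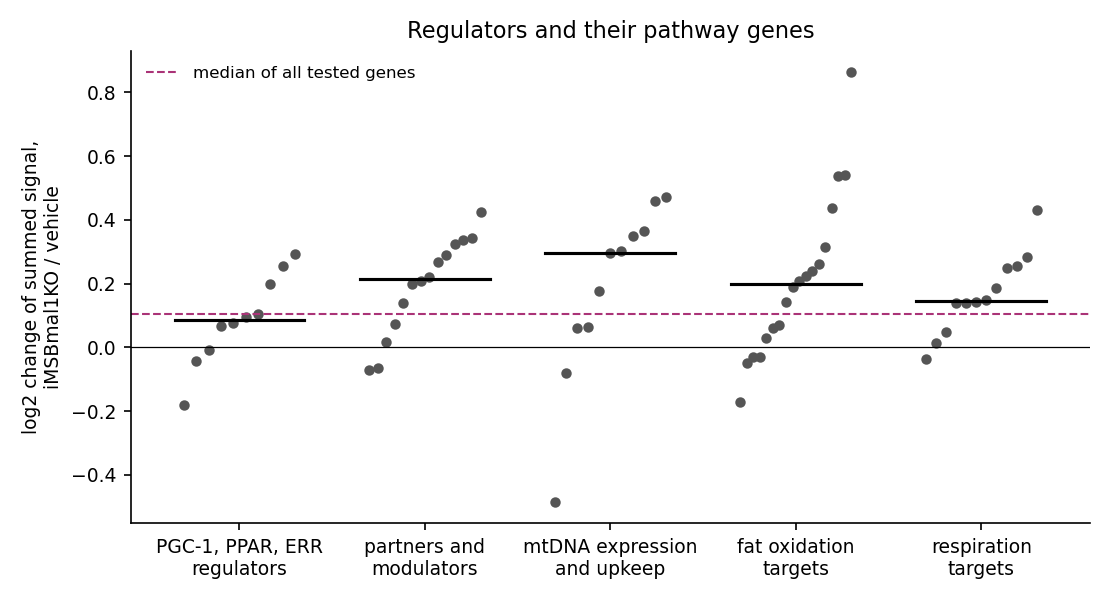
Log2 change of summed signal (iMSBmal1KO over Vehicle) for every tested gene of the 10 regulators and of the 4 pathway lists; points are genes, short lines list medians and the dashed line the median of all tested genes, 0.11. No point passed the adjusted threshold, and the medians run from 0.09 for the regulators to 0.30 for genes of mitochondrial DNA.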

How the data were processed

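A single table, deposited by the authors, lists regions with gene annotation and a signal for each library, per the file headers. The deposited signal is not whole, but 98.3% to 99.8% of non-zero values are whole multiples of 1 step per library (tolerance 0.02 reads), so values divided by the step are called read equivalents and no count model was used. Per the submitters' processing notes, Partek, Bowtie2, MACS2 and DESeq2 were used, with mm10 and GRCm39 named. Removal of duplicates and the shift for the transposase are not given in the sources used here and could change the values. The table names no build. Its coordinates are printed counted from 1, and 99.7% of the genes matched by symbol to RefSeq GRCm38.p6 (82.7% of its genes, all 10 members) overlapped the RefSeq gene.

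Each of the 8 value columns was matched to its sample by title. Signal was summed by gene, by start (within 1000 bp) and by gene section. Features with 10 reads at median depth in 4 libraries and 15 reads in all were fitted with limma-trend with robust moderation (limma 3.58.1, R 4.3.3) on log2(signal + 1), so changes of weak features are understated. P-values were adjusted by Benjamini-Hochberg over all features, with a threshold of 0.05, and the fit was tested on simulated data. Tables used Python 3.11.15 and pandas 2.3.3. Intervals of 95% come from the fit.

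The members, lists and tests were chosen with earlier results of these data known. Named by rule were all members, the region of highest mean signal of each, the 5 regions of smallest p in each direction (at most 2 per gene), and per list the 2 genes of smallest p in each direction. The larger region at the second Ppargc1a start, the first start of Ppard, the starts and intron sums and the cluster of Ppargc1a were added after values were seen. Alternatives were other pseudocounts, scalings, filters and promoter windows, limma-voom, a replicate block and leaving out each library. One gene of the fat oxidation list enters that list's counts only and is not reported here.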

Additional observations from a re-analysis of the deposited data

Results flagged for a closer look

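In 84 groups of 4 values (the summed signals, promoters and named regions of the regulators), 3 held a library far from the other 3 by Dixon's criterion, where chance alone gives about 4.2. The summed signal of Esrrb was 899 in iMSBmal1KO replicate 1 and 1108 to 1136 in the other iMSBmal1KO libraries. The Tfam promoter (Tfam-203) had 363 in iMSBmal1KO replicate 3, against 508 to 534 in the others. At the intron 4 region of Ppargc1b, 61314082 to 61314176, iMSBmal1KO replicate 2 had 66.1 and the others 59.6 to 60.4, a small gap among values that are nearly equal.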

How the results depend on the processing

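In 79 alternatives of the counts of called regulators (regions, genes, promoters, sections, promoter against rest), 0 were called each time. Of 691 alternatives of 42 single log2 changes, 639 kept their direction and none was called (smallest adjusted limma p of 0.176). The 52 reversals were in 19 results, whose deposited-scaling values were at most 0.11 in size.

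The cause of the reversals was not tested. With trimmed-mean factors the reversed summed signals were Ppargc1b -0.055, Ppara -0.026, Esrrg -0.047 and Tfam -0.017, the promoters Ppard-209 -0.045, Ppargc1b-201 -0.090 and Tfam-203 -0.0074, and the highest regions of Esrrg -0.091, Ppargc1b -0.062 and Tfam -0.0076. With cyclic loess they were Esrrg -0.00035 and Tfam -0.051, the promoters Ppard-209 -0.088, Ppargc1b-201 -0.18 and Tfam-203 -0.069, and the highest regions of Esrrg -0.13, Ppargc1b -0.063 and Tfam -0.014. With a promoter window of 500 bp Ppargc1b-201 gave -0.15.

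Without single libraries, summed signals ran from 0.13 to 0.39 for Nrf1, 0.096 to 0.31 for Gabpa, -0.026 to 0.15 for Ppargc1b, -0.080 to 0.048 for Ppard, -0.16 to 0.062 for Esrra and -0.049 to 0.24 for Tfam. Promoters ran from -0.16 to 0.060 for Esrra-203, -0.077 to 0.017 for Ppara-203, -0.080 to 0.16 for Ppard-209, -0.14 to 0.043 for Ppargc1a-201, -0.072 to 0.12 for Ppargc1b-201 and -0.054 to 0.25 for Tfam-203. Highest regions ran from -0.16 to 0.055 for Esrra, -0.047 to 0.12 for Esrrg, -0.063 to 0.057 for Ppara, -0.10 to 0.036 for Ppard, -0.34 to 0.023 for Ppargc1a, -0.032 to 0.19 for Ppargc1b and -0.058 to 0.25 for Tfam.

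The labels number replicates 1 to 4 in both groups without saying that they pair. Deviations of same-numbered libraries correlated at -0.06, 0.14, 0.02 and 0.02, and no library correlated best with its own number. With the replicate block 0 regulators were called, while calls over all features went from 29 to 116 genes, 33 to 77 promoters, 45 to 115 sections and 110 to 100 regions. Calls over all regions also moved to 285 with trimmed-mean factors, 342 with loess, 342 with limma-voom and from 32 to 281 without single libraries. The planned edgeR test was not run, since whole reads could not be established. Depth limits weak regions most: 375 of 545 member regions were too weak to test.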

Other observations

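Intergenic regions near the regulators were outside the rule that chose the members and were looked at after the members' values were known. Within 50 kb of the 10 genes lay 141 regions with no gene name, of which 40 could be tested. None was called (limma, smallest adjusted p of 0.112). At an unadjusted p under 0.05, 8 of the 40 were higher and 0 lower in iMSBmal1KO, beside 6.59% and 2.63% of all tested regions. Nearby regions are not independent, so these counts have no test.

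The smallest p belonged to a region 30582 bp upstream of Ppargc1b, at 61431014 to 61431223 of chromosome 18. Its signal was 19.2, 16.4, 17.2 and 12.5 in vehicle and 45.4, 42.6, 31.0 and 47.7 in iMSBmal1KO, without overlap, a log2 change of 1.30 ± 0.29 (SE, adjusted limma p of 0.112) on 4 to 106 reads per library. Closer to the same gene, 16166 bp upstream, 61416598 to 61416845 had 36.1 ± 13.9 and 69.3 ± 9.49 (SD, n = 4 each), also without overlap (log2 change 1.02, adjusted limma p of 0.354).

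Upstream of Ppargc1a, at 51595696 to 51596051 of chromosome 5 and 27969 bp before its upstream start, a region had 161, 217, 144 and 109 in vehicle and 202, 253, 228 and 245 in iMSBmal1KO. Here 3 of the 4 iMSBmal1KO libraries lay above every vehicle library (log2 change 0.59 ± 0.22 SE, adjusted limma p of 0.479), while the summed signal inside the gene had a log2 change of -0.18. Whether the 2 values differ from each other was not tested. Neither these regions nor their distance ties them to the nearest gene.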
